A study of Mus musculus with 294 samples.

Results

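The genes described here are the nuclear genes of oxidative phosphorylation, found in a table of 15124 genes by symbol: every row that starts with Nduf, Uqcr, Sdha, Sdhb, Sdhc, Sdhd or Atp5, or with Cox4 to Cox8 followed by a letter. The rule found 93 genes. Of these, 36 encode or resemble subunits of complex I, 4 of complex II, 8 of complex III, 17 of complex IV and 15 of complex V, and 13 encode assembly or accessory factors. Ndufa4 and Ndufa4l2 were counted with complex IV, where the Ndufa4 protein is found, and Atp5s and Atp5sl with the accessory factors. Levels are in CPM, reads per 1000000 reads of the cell, and a gene was called detected in a cell at 10 CPM or more. A gene was used if it was detected in 10% or more of the cells, as 90 of the 93 were.

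The cells came from the hearts of mouse embryos carrying Wnt1-Cre and R26-EYFP, around the septum that divides the outflow tract, taken on embryonic days 11.5, 12.5, 14.5 or 17.5. Wnt1-Cre drives recombination in the neural crest lineage, whose cells then make EYFP, a yellow fluorescent reporter, and were sorted by it and captured singly on Fluidigm C1 chips. All cells formed 1 group with the same tissue, genotype and sort, without treatment or control, and the labels give neither the stage nor the animal of a cell. The cells were therefore counted as 1 sample and no test between cells was made. They were set apart only by the first digit of the cell name, called the name series, whose meaning the labels do not give. Name series 1 to 7 held 58, 48, 38, 38, 34, 34 and 44 cells.

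A cell had between 34046 and 3033857 reads, with a median of 1204543, and 4 cells had under 100000. The number of genes with a read differed by series, from a median of 3123 in series 6 to 7718 in series 1. No 2 cells had the same counts. Most cells (96.3%) had at least 3 of 8 mesenchymal marker genes at 100 CPM or more, and 46.3% had at least 3 of 5 smooth muscle markers. At least 3 of 5 glial markers did so in 10 cells. Of the endothelial markers 3 of 5 were in the table, and no cell had all of them at that level; their highest sum in a cell was 3361.5 CPM. Of the epicardial markers 2 of 4 and of the blood markers 1 of 7 were in the table, too few for such a count, and their highest sums were 4092 and 278.5 CPM. Of 12 cardiomyocyte markers, at least 3 did so in 5 cells, and 2 cells of series 7 that carried 11 and 12 of them are described apart below. Intervals on shares of cells are exact 95% Clopper-Pearson intervals, and intervals on medians are 95% order-statistic intervals. They account for the sampling of cells alone and treat the cells as independent, although the animal of a cell is not known. The reads carry no molecular identifiers, and several can come from a single molecule.

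Oxidative phosphorylation takes electrons from NADH at complex I and from succinate at complex II, passes them through complex III and cytochrome c to oxygen at complex IV, and uses the proton gradient that complexes I, III and IV build to make ATP at complex V. Most subunits are encoded in the nucleus, and a small set, with the catalytic centres of complex IV and the proton-pumping core of complex I, in the mitochondrial genome. Several nuclear subunits exist in tissue forms: heart and skeletal muscle use Cox6a2 and Cox7a1 in place of Cox6a1 and Cox7a2, while Cox4i2 and Ndufa4l2 are known from lung, vascular cells and low oxygen. In the developing heart, cardiomyocytes raise their mitochondrial content as they mature. The table held no row named for a mitochondrially encoded gene, so the levels below are those of the nuclear subunits alone.

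Promoters of the nuclear subunits are known for sites of NRF1, of the ETS factor GABPA and of YY1, which are held to set their transcription together. RefSeq promoters on GRCm38.p6, each running from 250 bases before to 50 bases after a start site, were matched to 78 of the 93 genes. Motifs were searched as exact letters on both strands: GCGCATGC for the NRF1 core, CCGGAAG for ETS, AAGATGGCG for YY1 and TATAAA for the TATA box. The NRF1 letters were in 12 of the 78 promoters (15.4%, against 3.05% of all 27025 genes in the table). The ETS letters were in 20 (25.6%, against 9.93%) and the YY1 letters in 8 (10.3%, against 1.64%). The TATA letters were in 6 (7.69%, against 15.7%). A match is a match of letters and not a measured binding site. The 250 bases before the start are printed for 4 of the 5 genes whose promoters hold both the NRF1 and the ETS letters, with each match in capitals and written in the direction of transcription.
Atp5k, chr5:108434400-108434649, reverse strand: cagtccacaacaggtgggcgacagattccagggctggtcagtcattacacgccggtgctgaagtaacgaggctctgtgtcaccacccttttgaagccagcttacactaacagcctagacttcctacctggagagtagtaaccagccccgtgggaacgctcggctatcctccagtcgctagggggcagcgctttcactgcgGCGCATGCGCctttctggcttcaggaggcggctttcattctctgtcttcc
Atp5l, chr9:44920743-44920992, reverse strand: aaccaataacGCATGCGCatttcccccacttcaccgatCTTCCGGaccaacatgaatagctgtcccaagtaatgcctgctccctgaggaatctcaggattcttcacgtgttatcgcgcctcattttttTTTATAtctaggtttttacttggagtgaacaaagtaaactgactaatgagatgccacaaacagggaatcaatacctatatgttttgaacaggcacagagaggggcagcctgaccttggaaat
Cox6a1, chr5:115348959-115349208, reverse strand: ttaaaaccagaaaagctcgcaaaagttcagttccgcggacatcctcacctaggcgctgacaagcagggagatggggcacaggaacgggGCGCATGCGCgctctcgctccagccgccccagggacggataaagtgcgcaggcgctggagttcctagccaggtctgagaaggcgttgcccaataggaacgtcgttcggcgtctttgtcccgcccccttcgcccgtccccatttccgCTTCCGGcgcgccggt
Sdhb, chr4:140961021-140961270, forward strand: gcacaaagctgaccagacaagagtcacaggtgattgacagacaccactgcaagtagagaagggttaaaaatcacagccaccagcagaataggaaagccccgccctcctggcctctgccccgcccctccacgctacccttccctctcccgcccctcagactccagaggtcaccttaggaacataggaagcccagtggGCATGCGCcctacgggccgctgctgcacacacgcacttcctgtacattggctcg
In Atp5k and Cox6a1 the NRF1 letters match on both strands at once, 2 bases apart, since the longer stretch GCGCATGCGC reads the same on either strand. The ETS letters of Atp5k and Sdhb lie after the start and are not in the printed stretch. In Atp5l the second run of capitals is ETS on the opposite strand and the last is the TATA box on the opposite strand.

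For contrast, 2 promoters without NRF1, ETS or YY1 letters are printed. They belong to the pair of such genes, each with a single start in the table, that followed the other oxidative phosphorylation genes most closely across cells.
Uqcr10, chr11:4704345-4704594, reverse strand: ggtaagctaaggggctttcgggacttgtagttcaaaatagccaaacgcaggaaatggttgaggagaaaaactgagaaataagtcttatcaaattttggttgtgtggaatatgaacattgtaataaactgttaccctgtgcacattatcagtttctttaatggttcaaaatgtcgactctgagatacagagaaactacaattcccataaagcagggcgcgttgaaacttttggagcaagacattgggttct
Cox7c, chr13:86046796-86047045, reverse strand: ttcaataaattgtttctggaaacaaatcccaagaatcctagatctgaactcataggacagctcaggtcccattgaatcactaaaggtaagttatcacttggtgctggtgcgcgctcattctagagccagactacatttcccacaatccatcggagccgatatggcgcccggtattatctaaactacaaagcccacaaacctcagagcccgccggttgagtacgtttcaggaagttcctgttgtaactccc
The median correlation with the summed level of the other members, defined below, was 0.23 over 34 genes with the letters and 0.23 over 42 genes without. The range was -0.11 to 0.64 with the letters and -0.04 to 0.52 without, and the difference was not tested.

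The 90 genes together took a median of 19638 CPM per cell (95% interval 18459 to 20698), that is 1.96% of a cell's reads. The lowest cell had 5617 CPM and the highest 66183 CPM, or 0.562% and 6.62% of reads. Detection was broad: 90 of the 93 genes passed the filter of 10% of cells (96.8%), beside 58.5% of all genes in the table. Detection in 90% or more of the cells was reached by 27 of the 93 (29.03%), beside 2.28% of all genes. The 3 genes that failed the filter were Ndufs5, at 10 CPM in 0.340% of cells, Cox6a2 in 1.02% and Cox7a1 in 2.38%. The lowest that passed were the accessory factors Atp5s, in 10.5% of cells, and Atp5sl, in 13.9%. Atp5s passed through series 7, and was detected in 9.20% of the cells of the other series.

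Summed over their subunits, complex I had a median of 6387 CPM per cell (6042 to 6651) and complex V 5630 CPM (5222 to 5895). Complex IV followed at 3773 CPM (3615 to 4074), complex III at 2120 CPM (2001 to 2281) and complex II at 845 CPM (787.5 to 911). In 6 of the 7 name series the medians kept the order I, V, IV, III, II. In series 4 complex V stood above complex I. Assembly and accessory factors summed to 423 CPM (390 to 475). The order of the sums partly follows how many genes each complex has. As a mean per gene, complex V was highest with 389 CPM ± 253.2 (SD over its 15 genes), above complex III with 282.7 ± 108.7 (8 genes), complex IV with 273.6 ± 167.6 (15 genes), complex II with 230 ± 136.1 (4 genes) and complex I with 189.4 ± 66.1 (35 genes). The SDs of neighbouring complexes overlap.

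Genes were compared with each other as mean CPM per kilobase of transcript. In these cells mean CPM did not rise with length: Spearman's correlation between them was -0.37 over 89 members and -0.08 over 8553 genes, so dividing by length adds to the lead of short subunits. On that scale the median gene of complex IV stood at 452 CPM per kilobase, of complex III at 396, of complex V at 363.7, of complex I at 191.4 and of complex II at 104.3. The accessory and assembly factors stood at 19.02, below every subunit group, and their highest member, the complex I assembly factor Ndufaf2, reached 83.5. Sdhaf4, an assembly factor of complex II, followed with 79.8, and Ndufaf3 had 33.7. Sdhaf3 was the lowest, with 6.77.

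**Figure D1:**
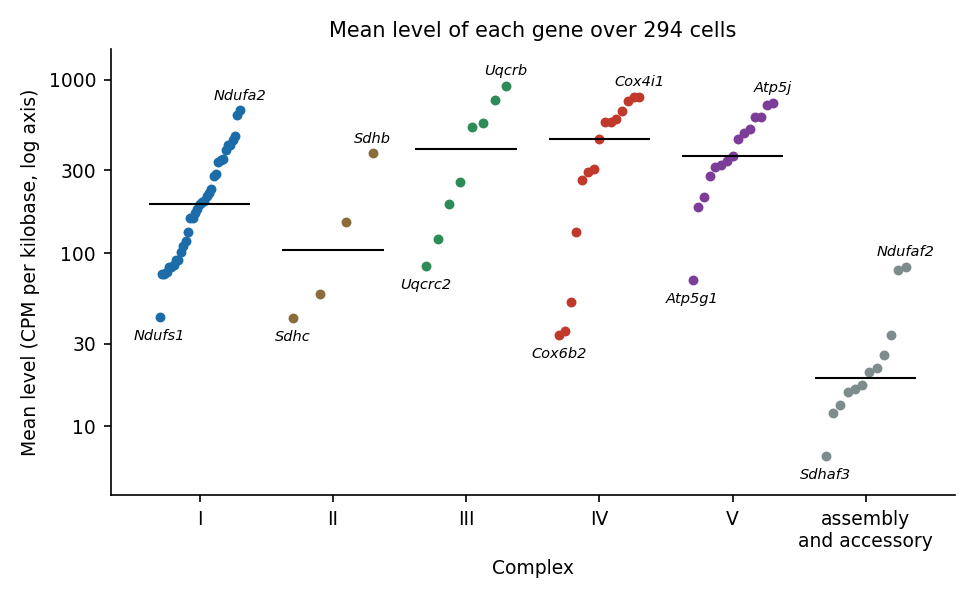
Mean level of each gene past the filter that has a transcript length (89 genes), as CPM per kilobase on a log axis, by complex. Points are genes in rising order, black lines are medians over the genes of a group, and the highest and lowest genes are named; assembly and accessory factors lie below the medians of all subunit groups.

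Within complex I the highest per kilobase were 3 accessory subunits: Ndufa2 with 665, Ndufa1 with 630 and Ndufb8 with 473. Ndufs1, the largest iron-sulfur subunit of the electron entry arm, was the lowest with 42.8.

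Complex II, which links the respiratory chain to the tricarboxylic acid cycle, had unequal subunits. Sdhb, its iron-sulfur subunit, was at 378 CPM per kilobase. The membrane anchor Sdhd was at 150.8, the flavoprotein Sdha, which oxidises succinate, at 57.7 and the other anchor, Sdhc, at 42.2. Sdhb had a median of 335.002 CPM over cells, with a lowest of 0 and a highest of 4553, and was detected in 86.1% of cells (81.6 to 89.8). Sdha was detected in 63.3% and Sdhd in 61.6% of cells.

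In complex III the small subunits Uqcrb (922), Uqcr11 (762.6) and the hinge protein Uqcrh (562.2 CPM per kilobase) led. Uqcrc2, a core protein of the complex, was the lowest with 83.9, and Uqcrfs1, the Rieske iron-sulfur protein, stood at 120. In complex IV, Cox4i1 (800), Ndufa4 (799) and Cox6c (752.3) led, and the lowest gene past the filter was Cox6b2 (33.7). In complex V, Atp5j, a stalk subunit, led with 736.5, followed by Atp5g3 with 719 and Atp5l with 608. The catalytic subunit Atp5b stood close to Atp5l, with 607. As plain CPM, Atp5b had the highest mean of all 93 genes, 1164 ± 883 (SD over all cells), and was detected in 99.3% of cells.

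Some of these levels depend on how reads from sequence shared with other genes were counted. Of the members with a transcript in GENCODE M21, 18 of 92 share 20% or more of their 50-base windows with another annotated gene, while 41 share none. The share was 84.8% for Atp5l, 45.6% for Atp5o and 43.4% for Uqcrb, so their levels are uncertain. Ndufs5, an accessory subunit of complex I on chr4:123712710-123718202 (GRCm38), had 5 reads in 3 cells. BC002163, annotated as a processed pseudogene that shares 21.7% of Ndufs5's windows, had 40405 reads and a mean of 113.6 CPM. It was at 10 CPM or more in 84.01% of cells (79.3 to 88.01), and its correlation with the members' summed level was 0.35. How reads from the shared windows were assigned is not given in the sources used here.

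Tissue forms of complex IV subunits were unequal. Cox4i1, the common form of a regulatory subunit (chr8:120668222-120674207), was detected in 97.96% of cells (95.6 to 99.2), with a median of 505 CPM. Cox4i2, its alternative form (chr2:152754173-152765037), was detected in 36.7% (31.2 to 42.5), with a mean of 38.1 CPM and a highest cell of 733. Its share differed by name series: 70.7% in series 1, 47.9% in series 2, 42.1% in series 3, 28.9% in series 4, 17.6% in series 5, 8.82% in series 6 and 18.2% in series 7. Cox4i1 was at 94.1% or more in every series.

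Series 1 also had the most genes per cell, a median of 7718 against 3123 in series 6, at similar median reads (1588070 and 1623340). Evening out reads therefore does not even out genes per cell, whose part in the shares was not tested. For depth alone, the shares were recomputed with every cell thinned to 286313 reads, which left out 30 shallower cells. Cox4i2 then stood at 70.6%, 55.3%, 41.2%, 25.7%, 13.8%, 8.82% and 18.6% in series 1 to 7. The level moved likewise: mean CPM was 73.8, 80.9, 38.6, 13.8, 15.3, 5.86 and 7.61. At the stricter level of 100 CPM, Cox4i2 was found in 29.3% of cells of series 1 and 22.9% of series 2, and in none of series 4 or 6. With 0 of 38 and 0 of 34 cells, the exact intervals reach up to 9.25% and 10.28%, and the limit of 3 counts is 7.89% and 8.82%.

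Ndufa4l2, the alternative form of Ndufa4, a known target of the hypoxia response (chr10:127514967-127517154), was detected in 18.03% of cells (13.8 to 22.9). It was detected in 55.2% of cells of series 1 (41.5 to 68.3), 20.8% of series 2 and 17.6% of series 5, but in 0 of 38 cells of series 3 and in 1 cell each of series 4 and 6. In name order its mean was 117.1, 32.3, 0.0472, 0.450, 28.8, 1.76 and 9.06 CPM. The highest series mean was 12.6 times the lowest with 10 CPM added to each. The gene passed the filter through series 1, where it was high: in the cells of the other series it was detected in 8.90%, below the 10% that the filter asks for. Ndufa4 itself was detected in 86.8% or more of the cells of each series, at a mean of 425 CPM.

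Cox4i2 and Ndufa4l2 were found together in 41 cells, 13.9% (10.2 to 18.4), beside 10.0% from multiplying their shares within each series. The correlation between their levels within a series had a median of 0.20, with a range of -0.05 to 0.44. With the 12 genes of the hypoxia list, such as Vegfa and Bnip3, the median was 0.06 for Cox4i2 and 0.14 for Ndufa4l2, and both ranged across 0 over the 7 series.

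Cox6b2, known from testis, was detected in 22.8% of cells (18.1 to 28.02) at a mean of 18.6 CPM, with 1416 CPM in a single cell of series 4. Cox6b1, the common form, was detected in 94.6%. Of the muscle forms, Cox6a2 was detected in 3 cells and Cox7a1 in 7, while Cox6a1 was detected in 92.9% and Cox7a2 in 96.3% of cells. Cox7a2l, which helps join complexes III and IV into supercomplexes, was detected in 75.5%. Cox7b and Cox8a were each detected in 87.8% and 93.2%. Of the genes for the c-ring of complex V, which encode the same mature protein, Atp5g3 had the highest level, 719 CPM per kilobase, against 323 for Atp5g2 and 69.7 for Atp5g1. Atp5g1's transcripts differ widely in length, so its value per kilobase is the least certain. As plain CPM, Atp5g3 had a mean of 517, Atp5g2 189.3 and Atp5g1 186.4.

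**Figure D2:**
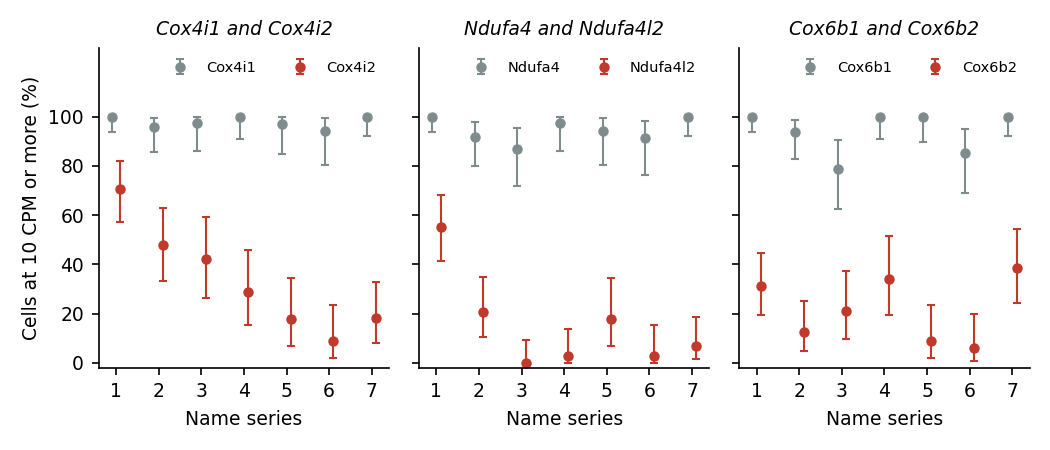
Share of cells at 10 CPM or more for the common form (grey) and the alternative form (red) of 3 complex IV subunits in each name series, with exact 95% intervals. The common forms lie at 78.9% or more in every series, and Cox4i2 and Ndufa4l2 are at their highest shares in series 1, 70.7% and 55.2%.

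The summed level was also compared across name series. Medians were 20831 CPM in series 1 (19628 to 21888), 20729 in series 2 (16545 to 22806), 15708 in series 3 (13762 to 18193) and 19737 in series 4 (16863 to 23635). They were 18251 in series 5 (15088 to 21392), 17318 in series 6 (16061 to 21804) and 23064 in series 7 (19862 to 25981). The highest was 1.47 times the lowest. The intervals of neighbours in this order overlapped, but the interval of series 3 lay wholly below those of series 1 and series 7. Series 3, the lowest, also had the fewest reads per cell, a median of 635879. Among cells of 1000000 reads or more the ratio was 1.97.

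**Figure D3:**
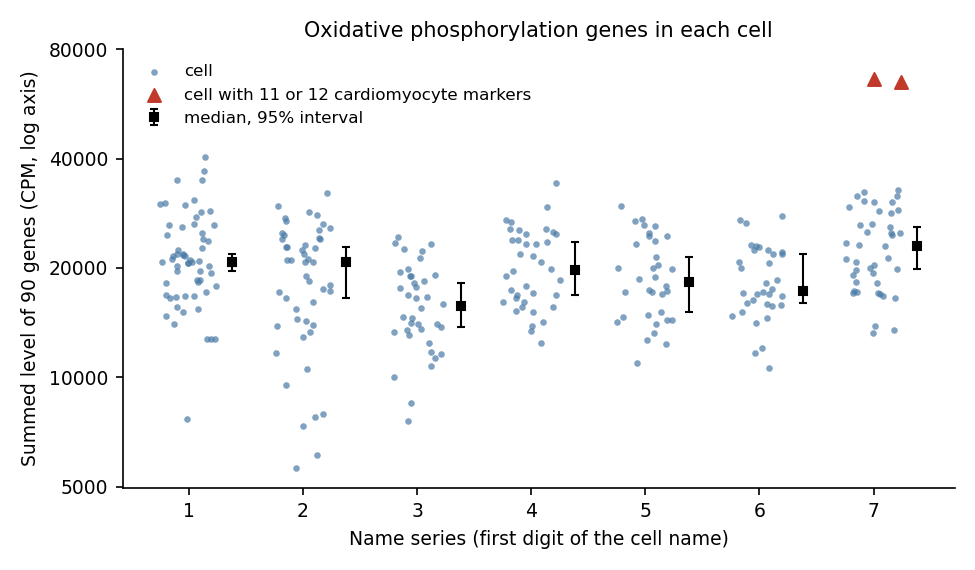
Summed level of the 90 genes in each cell (CPM, log axis) by name series, with the series median and its 95% interval in black. Medians lie between 15708 and 23064 CPM, and the 2 cells with 11 and 12 of 12 cardiomyocyte markers (red) stand at 65025 and 66183 CPM, above all other cells.

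Gene by gene, 53 of the 90 members differed by 2-fold or more between the highest and the lowest series mean (58.9%), against 85.7% of all genes past the filter. Among genes at 100 CPM or more on average the counts were 39 of 73 members (53.4%) against 75.2% of genes. The median ratio was 2.16 for members and 3.003 for all genes past the filter. Series 7 was the highest for 34 of the 90 members (37.8%, against 12.4% of genes), and for 25 without the 2 cells with cardiomyocyte markers. Series 3 was the lowest for 30 (33.3%, against 13.02% of genes) and series 6 for 28 (31.1%, against 23.9% of genes).

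The 10 members with the widest ratios were Ndufa4l2, Sdhaf2 (6.21), Cox4i2 (5.73), Ndufb10 (5.66), Cox6b2 (4.95), Ndufb11 (4.80), Ndufa10 (4.59), Ndufv3 (3.89), Sdhc (3.83) and Ndufs8 (3.69). A single cell carried the ratio of Cox6b2. Without the cell at 1416 CPM, left out after the values were seen, the mean of series 4 was 19.6 CPM and the ratio 2.39. Ndufb11 had a highest cell of 7916 CPM. Its mean over cells was 180.1 CPM, and 152.4 CPM without the cells under 100000 reads. Apart from Cox6b2, the ratios were not computed without the highest cell of each gene, so they may rest on few cells. Series 6 was the lowest for 6 of the 10, and for 23.9% of all genes past the filter, more than any other series. In series 6 the accessory complex I subunit Ndufb10 had a mean of 27.6 CPM, where the other series ran from 121.9 to 202.8. Ndufa10, Ndufv3 and the core subunit Ndufs8 were also low there, with 41.9, 44.7 and 46.4 CPM. The lowest mean outside series 6 was 88.1 CPM for Ndufa10, 95.995 for Ndufv3 and 87.6 for Ndufs8. Sdhc had 42.2 CPM in series 5 and 49.4 in series 6, against 98.7 to 190 elsewhere. Series 6 had the fewest genes with a read per cell, and the part of this in the low levels was not tested.

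The 2 cells of series 7 with cardiomyocyte markers stood apart from all others. They carried 11 and 12 of the 12 markers at 100 CPM or more, among them the sarcomere genes Tnnt2 (3207 and 3082 CPM) and Myl2 (8678 and 9084 CPM), where no other cell carried more than 3. The cut of 8 markers was set after the values were seen. Their oxidative phosphorylation genes summed to 65025 and 66183 CPM, 2.94 and 2.99 times the median of the other 42 cells of series 7, which was 22124 CPM (lowest 13231, highest 32776). The highest of all other cells reached 40480 CPM. They had 1248649 and 1845417 reads, and 6631 and 6547 genes with a read, where the median cell of series 7 had 4676.5 genes.

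All 5 complexes were higher in both cells than the median of the other series 7 cells. Complex III stood at 3.90 and 3.98 times that median, complex II at 3.86 and 2.26 times, complex IV at 2.86 and 3.32 times, complex V at 3.20 and 2.81 times and complex I at 2.25 and 2.67 times. Assembly and accessory factors stood at 1.71 and 1.29 times. For complexes I, III, IV and V no other cell of any name series reached the lower of the pair, whereas for complex II 14 did. Of the 90 members, 38 were at 2-fold or more in both cells over the mean of the other cells of series 7 (42.2%), against 3.12% of all genes past the filter.

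The muscle forms of complex IV were found in these cells. Cox6a2 (chr7:128205435-128206387) had 381 and 386.4 CPM, and the next highest of all cells had 58.8. Cox7a1 (chr7:30184144-30186078) had 152.2 and 58.5 CPM, and the next highest cell had 39.1. The common forms were present as well: Cox6a1 had 973 and 1089 CPM and Cox7a2 797 and 1849 CPM. Cox4i2 was at 0 in both, with Cox4i1 at 1494 and 2341 CPM. Atp5b had 6415 and 3149 CPM, and the Rieske protein gene Uqcrfs1 1116 and 1029 CPM, where the other cells of series 7 had a mean of 106.04.

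Genes upstream and beside the chain were summed in the same 2 cells. Tricarboxylic acid cycle genes summed to 8798 and 4856 CPM, against a median of 2085 and a highest of 3863 in the other cells of the series. Glycolytic genes summed to 13329 and 17600 CPM, against a median of 4684 and a highest of 13618. Mitochondrial ribosomal protein genes stood at 10949 and 11517 CPM, against a median of 6274 and a highest of 13845, above both. Cytosolic ribosomal protein genes had 32563 and 54021 CPM, against a median of 32627 and a highest of 59583. The mesenchymal genes Postn (115.3 and 708.8 CPM) and Col3a1 (2672 and 771 CPM) were read in them too, and whether each held the RNA of 1 cell was not tested beyond the imaging the labels describe. They are 2 cells, with no replicate.

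Whether the genes moved together from cell to cell was described by Spearman's correlation across the cells of each name series, between a gene's log2(CPM + 1) and the summed level of the other members. The value given is the median of the 7 series. Cells of a series may share a chip and differ in depth, so these values describe the cells and carry no p. Of the 90 members, 50 had a median of 0.2 or more (55.6%), against 3.47% of all genes past the filter. At a mean level of 100 CPM or higher it was 49 of 73 members (67.1%) against 11.5%. The correlation was positive in all 7 series for 32 of the 90 members (35.6%) and for 2.58% of genes.

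Atp5j2, subunit f of complex V, followed the others most closely (0.64, range 0.16 to 0.72). Next were Uqcr10 (0.52), whose promoter is printed above, Cox7c (0.49), Cox6c (0.48) and Cox8a (0.48). At the other end were Atp5a1, the alpha subunit of complex V (-0.12), and Uqcrc1, a core protein of complex III (-0.11). The assembly factor Sdhaf1 had -0.09, Ndufa4l2 -0.06, Ndufs1 -0.05 and Sdha -0.04. Atp5b, the most abundant as plain CPM, had 0.01. By complex, the median gene had 0.38 in complex IV, 0.33 in complex V, 0.23 in complex I, 0.18 in complex III, 0.10 in complex II and 0.04 among assembly and accessory factors.

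Summed by complex, complexes I and IV moved together most closely, with a median of 0.79 (0.46 to 0.85 over the series). Complexes IV and V had 0.62, I and III 0.55, I and V 0.53, III and IV 0.51 and III and V 0.51, each positive in all 7 series. The correlations of complex II with the other complexes had medians of 0.14 to 0.20, and those with complexes I, III and V were negative in 1 of the 7 series each. Assembly factors had medians of -0.02 to 0.29 with the complexes.

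Transcript length moved with these correlations. Over the 89 members with a length the Spearman correlation between length and the median correlation above was -0.57, and over all 8553 genes past the filter with a length it was -0.29. At a mean of 100 CPM or more it was -0.55 for 73 members and -0.51 for 2223 genes. The median correlation also moved with the mean level, with 0.57 over the members and 0.04 over all genes, and with 0.40 and 0.18 at 100 CPM or more. The length ranges that follow hold only genes at a mean of 100 CPM or more. Up to 600 bases, the median correlation was 0.33 for 19 members and 0.30 for 54 other genes, nearly the same. From 600 to 1000 bases it was 0.32 for 25 members and 0.15 for the others. From 1000 to 2000 bases it was 0.15 for 21 members and 0.01 for the others. From 2000 to 4000 bases it was 0.09 for 8 members, a thin group, and -0.04 for the others. Length was examined after the values had been seen, and its part in the correlations was not otherwise tested.

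**Figure D4:**
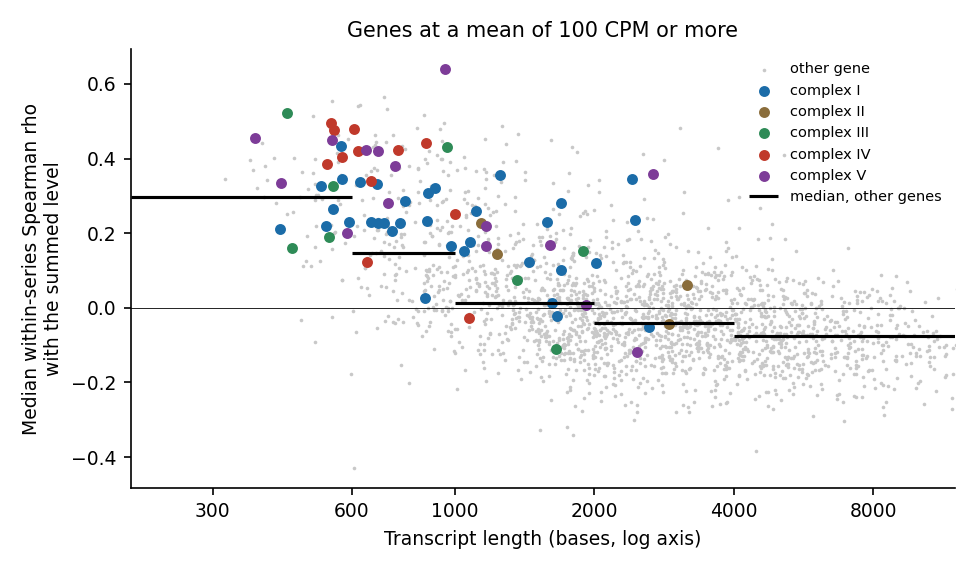
Median within-series Spearman correlation with the summed level of the 90 genes, against transcript length (log axis), for genes averaging 100 CPM or more. Coloured points are oxidative phosphorylation genes by complex, grey points other genes, and black lines the median of other genes in a length range; both sets fall with length, and from 600 to 1000 bases the members' median is 0.32 and that of other genes 0.15.

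The genes outside the set that followed it most closely were led by short transcripts. Among the highest were Rps19 (0.57), Rpl41 (0.55), Tmsb10 (0.54), Rps27a (0.53), Rps19-ps3 (0.50), Rpl35 (0.50), Shfm1 (0.49) and Tceb2 (0.49). Of the 100 highest with the same sign in all 7 series, 51 were cytosolic ribosomal protein genes. Such genes were 77 of the 8853 past the filter. The lowest with the same sign in every series were the nuclear long noncoding RNA Malat1 (-0.43), Brd8 (-0.38), Mapk8ip3 (-0.34), Rsrp1 (-0.32) and the collagen gene Col1a1 (-0.29). The summed level of 77 cytosolic ribosomal protein genes, chosen by symbol and with Rps19bp1 among them, had 0.64 with the members (0.46 to 0.80 over the series). It had 0.73 with the 45 members of up to 908 bases and 0.35 with the 44 longer ones. With that sum held constant by partial rank correlation, complexes I and IV had 0.62, IV and V 0.49, III and V 0.38, I and III 0.36, I and V 0.35 and III and IV 0.23. Complex II then had 0.31 with I, 0.24 with IV, 0.23 with V and 0.18 with III, so its values lay beside that of III and IV. Among the 44 longer members alone, II and V had 0.31, the highest of all pairs, while IV and V had 0.04 and III and IV -0.03. These longer members hold all 4 genes of complex II, but of complex IV only Cox7b, Cox7a2l and Ndufa4l2. Ndufa4l2 was detected in 18.03% of cells, so the values with IV do not describe the whole complex.

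Genes that act beside the complexes moved with them as a sum. The 36 other genes of the respiratory chain, for cytochrome c and for assembly and regulation, had a median of 0.57 (0.22 to 0.70, positive in all 7 series). Atpif1, the inhibitor of complex V, led them (0.48), followed by Usmg5, a small subunit of complex V (0.40), and Cycs, cytochrome c (0.31). Only 4 of the list's 33 genes past the filter had 0.2 or more. Mitochondrial ribosomal protein genes, which make the mitochondrially encoded subunits, had 0.56 as a sum, with Mrpl52 highest (0.34). Of their 77 genes, 5 had 0.2 or more. Acad9, Uqcc1 and Ttc19, which serve the assembly of complexes I and III, had -0.11, -0.16 and -0.18. They were detected in 23.8%, 13.9% and 28.9% of cells, and in counts this sparse such weak correlations are no finding.

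The 16 genes of the tricarboxylic acid cycle and pyruvate dehydrogenase had a median of 0.08, and the series ran from -0.56 in series 6 to 0.59 in series 2. The median was -0.03 without the 2 cells with cardiomyocyte markers and 0.20 with total reads and genes detected held constant. No gene of that list reached 0.2, and malate dehydrogenase Mdh2 was highest (0.13). The 14 mitochondrial regulators had -0.17 as a sum, but -0.02 with total reads and genes detected held constant and -0.02 with the 44 longer members. Among them Ppargc1a, a coactivator of mitochondrial biogenesis, had -0.13, Tfb1m -0.13 and Gabpb1, a partner of GABPA, -0.12, while Pprc1 had 0.07, Tfb2m 0.04 and Nrf1 0.02. These regulators were sparse, with Ppargc1a detected in 18.03% and Nrf1 in 22.1% of cells, and in counts this sparse a weak correlation is no finding.

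Glycolytic genes, 21 of them from the glucose transporters to lactate dehydrogenase, summed to a median of 3657 CPM per cell. Their correlation with the members was positive but small, with a median of 0.12. By series it was 0.16, 0.57, 0.21, 0.04, 0.12, 0.05 and 0.12. In series 2, where it was largest, the members' sum also rose with the cell's total reads (0.71), while in the other 6 series that relation lay between -0.54 and -0.13. With total reads and genes detected held constant, the value in series 2 was 0.24 and the median 0.18. Gapdh had 0.30 and was the single gene of the list at 0.2 or more, followed by Aldoa (0.14) and Ldhb (0.11). Gpi1 had -0.08, Hk1 -0.10 and Pfkl -0.11. Between series the order of the sums differed: glycolytic genes were highest in series 5, with a median of 6097 CPM, and lowest in series 6, with 1942 CPM, whereas the members were highest in series 7 and lowest in series 3. Taken as a mean over genes of log2(CPM + 1), the median correlation was 0.46.

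Smooth muscle contractile genes, 18 of them, summed to a median of 6107 CPM. Their correlation with the members had a median of 0.11 and no common sign: it was 0.11, 0.26, 0.20, -0.29, -0.11, 0.32 and 0.10 in series 1 to 7. With the ribosomal sum held constant it was -0.02, with the 44 longer members alone -0.00, and with cells thinned to equal depth 0.23. Myl6, a myosin light chain that most cells make, had 0.29 and stood alone above 0.2, while Actn1 had -0.26, Csrp1 -0.17 and Tpm4 -0.15. Mylk and Tpm2 had 0.09 and 0.08. No relation of stable sign between contractile and oxidative phosphorylation genes was detectable in these cells.

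The 15 stress and immediate early genes, which cell dissociation is known to raise, had a median of -0.15 and reached -0.60 in series 1, with Jun at -0.27 and Atf3 at -0.20. Junb had 0.04, Hspa1b -0.03, Jund -0.04 and Hspa1a -0.18. The 12 genes of the hypoxia list had -0.10, with Higd1a highest (0.20), then Egln3 (0.04) and Ero1l (-0.00), and with P4ha2 (-0.19), Bnip3 (-0.12) and Ndrg1 (-0.09) lowest. The 18 cell cycle genes had -0.02, and their members lay between -0.14 for Mcm6 and 0.11 for Ccnb2. With total reads and genes detected held constant, the stress genes had -0.27, the hypoxia list -0.00 and the cell cycle genes 0.11. The cell cycle value then ran from 0.003 in series 1 to 0.19 in series 5, with 0.01 in series 7.

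**Figure D5:**
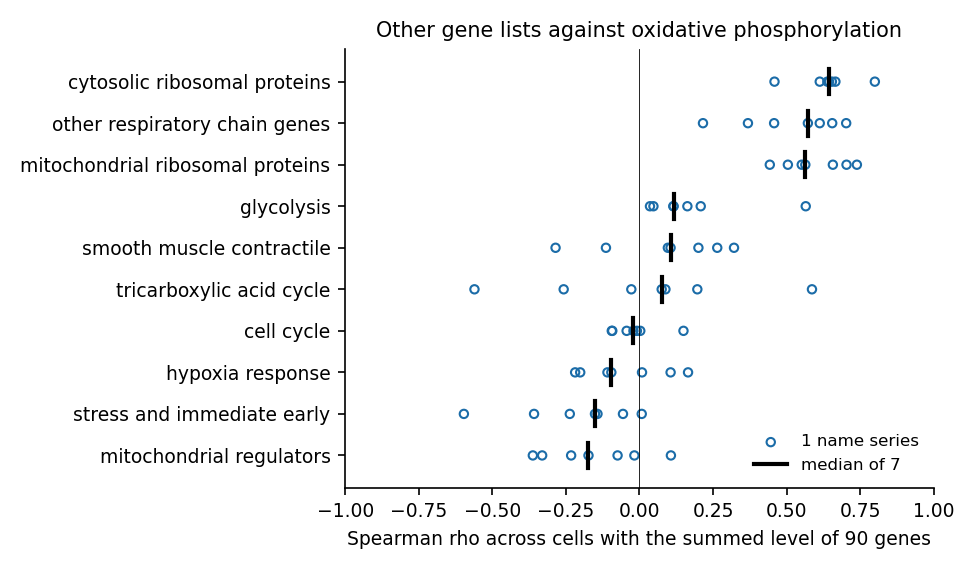
Spearman correlation across the cells of each name series between the summed level of each gene list and that of the 90 genes. Open points are the 7 series and black bars their medians. The 3 lists of ribosomal protein and other respiratory chain genes lie above 0 in every series. Glycolysis does so as well, from 0.04 in series 4 to 0.57 in series 2.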

How the data were processed

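RNA of 294 single cells was sequenced as read pairs of 50 bases on an Illumina HiSeq, after SMARTer v4 cDNA and Nextera XT libraries, per the labels' protocols. The deposited table holds raw counts, reads per gene as whole numbers. A second deposited table holds a score that the authors named SCT, normalised and rounded to whole numbers, and it served only as an alternative. The submitters' processing notes name HISAT2 2.1.0, featureCounts, Seurat and mm10, without their roles.

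Counts were scaled to CPM with Python 3.11.15, pandas 2.3.3, NumPy 2.4.6 and SciPy 1.17.1. A member passed the filter at 10 CPM or more in 10% or more of cells. Transcript lengths are medians over principal isoforms in GENCODE M21 (GRCm38), found for 92 of 93 members. Correlations used log2(CPM + 1). A ratio over name series had 10 CPM added to both means. No doublet caller was run, since the labels describe imaging of each capture site. The functions were tested on simulated data.

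The members and lists were chosen with earlier results of these data known. The text names, per complex, the 3 highest and the lowest members per kilobase, all tissue forms, all complex II subunits, the 10 widest ratios, the genes at the filter's edge, the 10 highest and 5 lowest correlated genes outside the set with 1 sign in all series, and the 3 highest and 3 lowest of each list. Some genes these rules name are given by range, and some are not reported here. Alternatives covered the total, the SCT table, thinning, each series left out, the filters, the pseudocount and the score. The split by transcript length, the ribosomal covariate and the 2 cells with cardiomyocyte markers were chosen after seeing the data.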

Additional observations from a re-analysis of the deposited data

How the results depend on the processing

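The summed level and the number of members past the filter kept within their interval, or within 1.5 times, under every alternative run: the level lay between 18923 and 20326 CPM, and the number between 74 and 90. The complex II level as a mean over cells was 918 CPM and the complex IV level 4104 CPM, both just above the interval of the median. Leaving out each name series in turn gave complex IV levels of 3546 to 4035 CPM, the lowest without series 1. Among cells of 1000000 reads or more, the highest series median was 1.97 times the lowest instead of 1.47. With cells thinned to equal depth it was 1.58 times the lowest. The correlation with glycolytic genes was 0.46 as a mean over genes of log2(CPM + 1), and lay between 0.08 and 0.23 under the other alternatives. The correlation with contractile genes changed sign with the longer members alone (-0.00138) and given the ribosomal sum (-0.0164), both chosen after seeing the data, and lay between 0.02 and 0.23 otherwise. The number of members at 2-fold or more over series lay between 40, among the 74 members detected in 50% or more of cells, and 79. The share of all genes past the filter, 85.7% as reported, was not computed under the alternatives. Whether members stay below that share under each alternative is therefore not known. Levels of single named genes kept within the SD over series under the alternatives run. No paired analysis was possible because the cells form 1 group. Counts without molecular identifiers, 1 sample, and no stage or animal per cell limit all of these values.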
